A study of Mus musculus with 28 samples.

Results

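The liver response to adefovir dipivoxil was measured in 5 female C57BL/6 mice, which supplied 10 of the 28 arrays of the study. The arrays were chosen by their sample titles, 2 per animal with the dyes exchanged. Adefovir dipivoxil was injected intraperitoneally at 25 mg/kg for 3 days into mice 8 to 10 weeks old, and the mice were killed on day 4, with 24 hours since the last dose. The group most like it, 5 mice of the same strain, sex and age, received tenofovir disoproxil at the same dose by weight and on the same days. The control was a pool of liver RNA from saline-injected mice of the same kind, hybridised in the other channel of every array. The pool acts as 1 control sample, so every test against it leaves out the spread among saline animals. The labels put 10 saline animals into the pool, where the treatment protocol gives a saline group of 5.

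Adefovir is an acyclic nucleotide analogue of adenine, given as the dipivoxil prodrug that is cleaved to the active phosphonate. It is used against hepatitis B virus and is best known for toxicity to the kidney tubule. The title of the series poses the question of how such compounds bear on cytochrome P450 genes. These heme enzymes oxidise drugs, steroids, fatty acids and retinoids in the liver, and many of them are under the control of nuclear receptors or of the aryl hydrocarbon receptor.

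Among 120 gene probes tested, RNA for 2 P450 genes fell after adefovir and 1 sterol sensor gene was called higher, together 2.50% of the probes. The genes that fell were Cyp26a1, the hydroxylase that breaks down retinoic acid, and Cyp1a2, a liver enzyme that oxidises caffeine and aromatic amines. The gene called higher was Scap, the escort protein that carries sterol-responsive transcription factors out of the endoplasmic reticulum. Of the genes called, Cyp26a1 was called under every alternative that gave it a value, and the Cyp1a2 call was lost under 5 alternatives. The Scap call was lost under 12 alternatives and without 3 of the 5 animals, and the Scap ratio depended on the dye. Here and below, a call is a Benjamini-Hochberg adjusted p under 0.05 in limma's test over all probes, and a value is the log2 ratio of adefovir over the saline pool unless another quantity is named.

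The 250 bases upstream of the annotated start of the genes that fell are shown because these genes carry the P450 result. They come from RefSeq on GRCm38.p6 and are written 5′ to 3′ on the strand of the gene. In the Cyp26a1 window, chr19:37697558-37697807 on the plus strand, the capitals mark a match to the motif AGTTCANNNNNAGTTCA on the opposite strand, a direct repeat of the kind bound by retinoic acid receptors. In the Cyp1a2 window, chr9:57683656-57683905 on the minus strand, the capitals mark the letters TATAAA.
Cyp26a1: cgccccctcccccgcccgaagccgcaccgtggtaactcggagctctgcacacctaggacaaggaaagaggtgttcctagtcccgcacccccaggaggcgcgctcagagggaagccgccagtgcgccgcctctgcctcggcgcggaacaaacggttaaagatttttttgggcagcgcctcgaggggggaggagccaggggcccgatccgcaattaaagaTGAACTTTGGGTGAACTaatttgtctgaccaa
Cyp1a2: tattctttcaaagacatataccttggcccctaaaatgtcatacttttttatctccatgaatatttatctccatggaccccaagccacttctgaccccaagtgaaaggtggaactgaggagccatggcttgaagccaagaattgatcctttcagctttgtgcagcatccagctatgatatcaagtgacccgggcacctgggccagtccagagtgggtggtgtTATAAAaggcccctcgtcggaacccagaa

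Both strands of the windows of 32851 annotated starts were searched for these letters. The motif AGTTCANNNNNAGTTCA stood in 7 of them (0.0213%), and Cyp26a1 was the 1 gene that held it among the 88 array genes found in the promoter table. TATAAA stood in 12.4% of all starts and in 25 of the 88 array genes, and in the Cyp1a2 but not the Cyp26a1 window. The core letters GCGTG, which the aryl hydrocarbon receptor binds, stood in 28.2% of all starts and in 39 of the 88 array genes. GCGTG was in neither of these windows. The retinoic acid receptor repeat was also searched with G in place of the first T of each unit. That form stood in 3 of all starts and in 0 of the 88 array genes, so it was absent from the Cyp26a1 window. The repeat unit of 6 letters, as found in Cyp26a1, stood in 11.8% of all starts and in 18 of the 88 array genes. The rarity given above thus holds for 1 spelling of the repeat. A match describes the letters of a window and is no evidence of binding, and the arrays measured no binding.

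Cyp26a1 RNA was near the limit of measurement in adefovir livers and measurable in the saline pool. With adefovir RNA in Cy5, the Cyp26a1 spots minus their local background read 19, -81, 35, -18 and -6 scanner units in animals 1 to 5, against 337, 231, 307, 164 and 414 in the saline channel of the same arrays. With adefovir RNA in Cy3, they read 21, 6, 21, 20 and 55, against 57, 37, 47, 21 and 55 for saline. The groups were apart on the 5 arrays with saline in Cy3 and close together on the 5 with saline in the dimmer Cy5 channel. The adefovir channel was above background on 1 of 10 arrays and the saline channel on 9 of 10, so the size of the ratio depends on how background is treated and no fold is given. Here above background means a spot median over the local background by 2 background SDs, in most of the 3 spots of a probe.

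**Figure D1:**
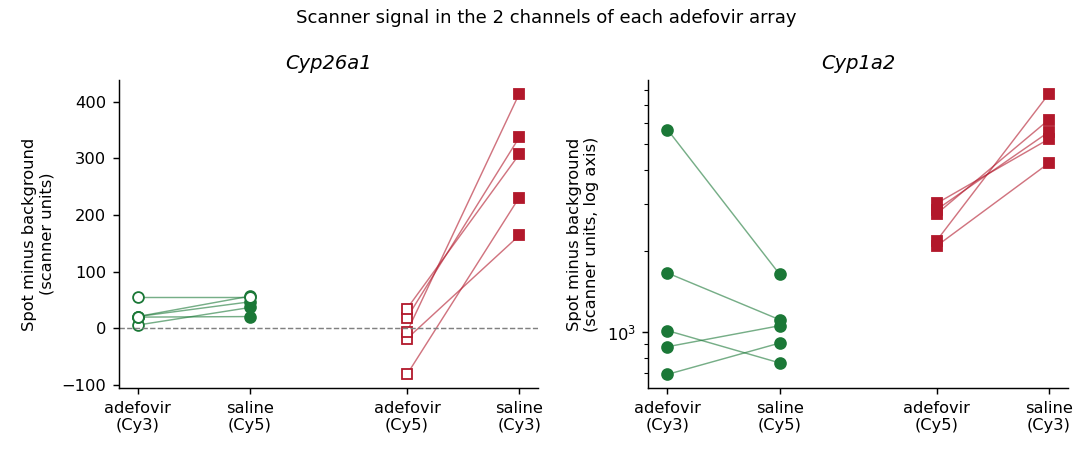
Spot signal minus local background, in scanner units, in the adefovir channel (left of each pair) and the saline channel (right) of the 10 adefovir arrays, with adefovir RNA in Cy3 (circles) or Cy5 (squares); lines join the channels of an array, and open symbols were not above background. Cyp26a1 (linear axis) was open in 9 of 10 adefovir channels, whereas Cyp1a2 (log axis) was above background in both channels of all 10 arrays.

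Normalised, the Cyp26a1 ratio was below 0 on all 10 arrays. The values of the 5 animals, each the mean of its dye pair, were -1.32, -1.37, -1.01, -0.66 and -1.00. The ratio was lower in 5 of 5 animals, by 1.07 on average (log2 ratio -1.07, SE 0.111, 95% interval -1.32 to -0.83, SD 0.288, n = 5, limma adjusted p = 0.000139). The orientations differed in size, with a mean of -0.75 with adefovir in Cy3 and -1.39 in Cy5. Over 17 alternatives the ratio ran from -2.56 to -0.75, with adjusted p from 1.36e-06 to 0.00769 by limma. The lowest value came with background subtraction and the highest with the Cy3 arrays alone.

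Among 6 probes of retinoid genes Cyp26a1 was the 1 call, and the list median was 0.02. The other 5, the receptors Rara, Rarg, Rxra, Rxrb and Rxrg, were above background on at most 5 of the 10 arrays and did not pass. Rara, a receptor through which retinoic acid induces Cyp26a1, had 0.01 and its partner Rxra 0.06. Rara was above background in the adefovir channel on 2 of 10 arrays, so these values set no narrow limit on receptor RNA.

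Cyp1a2 was bright in both channels of all 10 arrays. With adefovir RNA in Cy5, its signal over background was 3015, 2757, 2858, 2092 and 2190 scanner units in animals 1 to 5, against 5241, 6189, 5571, 4262 and 7729 in the saline channel. With the dyes exchanged it was 1658, 880, 694, 1011 and 5685, against 1110, 1054, 908, 766 and 1640 for saline. On the Cy5 arrays the adefovir values all lay below the saline values. On each of these arrays the reference genes Actb and Gapdh were also lower in the adefovir channel. The order of the channels before normalisation therefore does not by itself show a fall of Cyp1a2. On the Cy3 arrays the channels overlapped before normalisation, and adefovir was the higher in animals 1, 4 and 5.

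After normalisation Cyp1a2 was below 0 in every animal and in both orientations. The animals had -0.34, -1.09, -0.62, -0.48 and -0.43, with animal 2 the lowest. The ratio fell by 0.59 on the log2 scale, or 1.51-fold (SE 0.113, 95% interval -0.84 to -0.34, SD 0.297, n = 5, limma adjusted p = 0.0169). The mean was -0.63 with adefovir in Cy3 and -0.56 in Cy5. The call held without any 1 animal (adjusted p 0.00988 to 0.0495), and was lost with background subtraction (0.0516), calibration-spot centring (-0.37, 0.424), luciferase centring (-0.39, 0.128), the adefovir animals fitted alone (0.0604) and the series table (-0.42, 0.689). Cyp1a1, its close relative and the other aryl hydrocarbon receptor target on the array, was above background in neither channel of any of the 10 arrays, so its ratio of -0.12 says nothing on its RNA. Probes of such close relatives may share hybridisation, which these data cannot resolve.

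**Figure D2:**
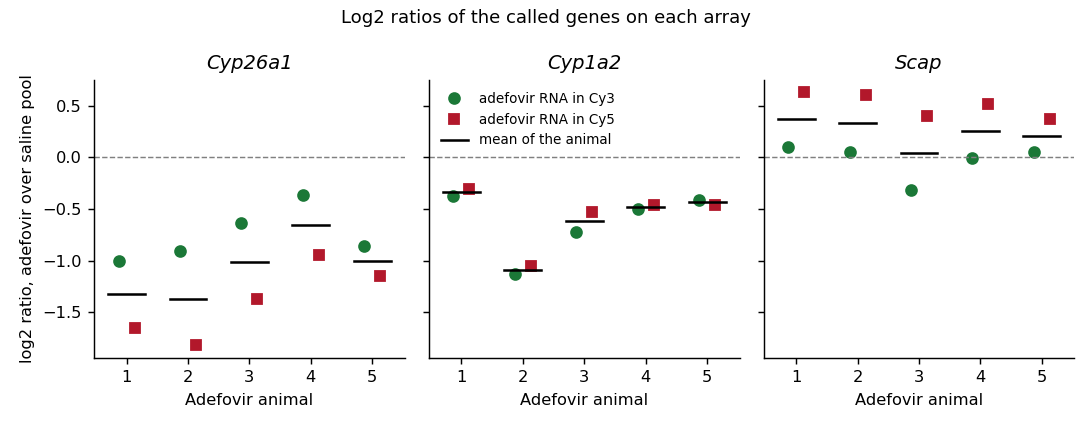
Log2 ratio of adefovir over the saline pool for Cyp26a1, Cyp1a2 and Scap in adefovir animals 1 to 5, from the array with adefovir RNA in Cy3 (circles) and in Cy5 (squares), with the mean of the animal as a black line. Cyp26a1 and Cyp1a2 lie below 0 on every array, whereas Scap lies between -0.32 and 0.10 in Cy3 and between 0.37 and 0.63 in Cy5.

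The remaining P450 genes held no call. Of the 31 P450 probes, 22 were above background on at least 6 of the 10 arrays in at least 1 channel, 2 fell, none rose and 29 did not pass. The list had a median of -0.05, beside -0.00 over all 120 probes and background rates of 1.67% of probes called lower and 0.833% called higher. The steroid 17-hydroxylase Cyp17a1 had -0.68, -0.25, 0.17, -0.68 and -0.24 in the 5 animals, a mean of -0.34 (adjusted p = 0.214). Animal 3 was on the other side of 0 in both orientations, at 0.26 and 0.08.

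Both Cyp2a genes had positive ratios in 5 of 5 animals, which 9.17% of all probes did, and neither passed in limma's test. Cyp2a4, a testosterone 15-hydroxylase of female liver, had 0.07, 0.07, 0.37, 0.39 and 0.40, a mean of 0.26 (adjusted p = 0.0868). Its mean was 0.43 with adefovir in Cy3 and 0.09 in Cy5. The Cy3 arrays alone called it (adjusted p = 0.00769), as did the random-block fit (0.0230) and the fit with array weights (0.0341). Cyp2a12 had 0.08, 0.01, 0.30, 0.19 and 0.30, a mean of 0.17 (adjusted p = 0.0889).

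Targets of the drug-sensing receptors CAR and PXR did not pass. Of 12 such probes 11 were above background, with a median of 0.00 and no call in either direction. Cyp2b10, the standard reporter of CAR, had animal values of -0.22, -0.20, 0.00, 0.00 and 0.19 (mean -0.05, 95% interval -0.19 to 0.10). Abcb1a, a drug efflux pump, was below 0 in 5 of 5 animals at -0.46, -0.12, -0.08, -0.29 and -0.09 (mean -0.21, adjusted p = 0.140), which 8.33% of all probes were. The arrays of its pairs had opposite signs in animals 2, 3 and 5. These animals had -0.36, 0.01 and -0.46 with adefovir in Cy3, and 0.11, -0.16 and 0.28 in Cy5. Cyp2e1, which oxidises ethanol and paracetamol, had 0.12 (-0.07 to 0.30), and Alas1, which starts heme synthesis, had 0.14 (-0.14 to 0.43).

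**Figure D3:**
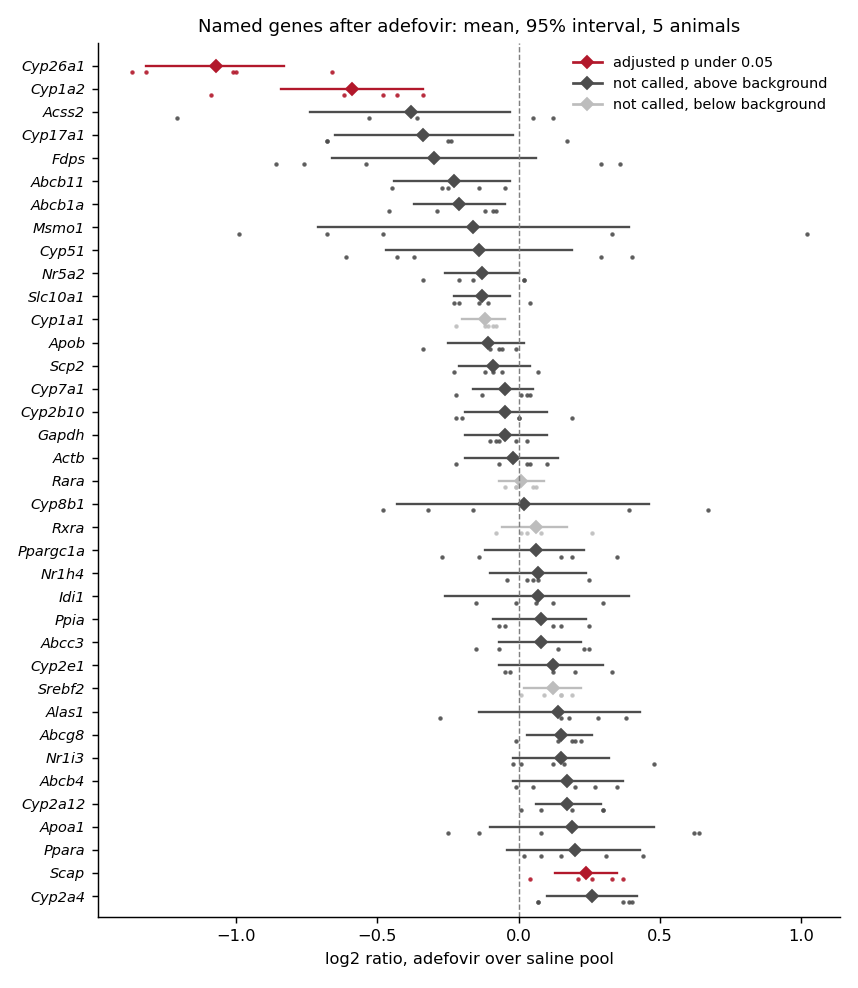
Mean log2 ratio of adefovir over the saline pool (diamonds) with its 95% interval (lines) for the 37 named genes, with the 5 animals as dots beneath; red marks calls, dark grey genes above background and light grey genes below it. Cyp26a1 at -1.07 and Cyp1a2 at -0.59 stand to the left, and the wide intervals belong to Msmo1, Cyp8b1, Acss2 and Fdps.

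Scap, the 1 gene called higher, depended on the dye. With adefovir in Cy5 its ratios were 0.63, 0.60, 0.40, 0.52 and 0.37 in animals 1 to 5. With adefovir in Cy3 they were 0.10, 0.05, -0.32, -0.01 and 0.05. All 5 Cy5 values lay above all 5 Cy3 values, with means of 0.50 and -0.02. Averaged per animal, Scap had 0.37, 0.33, 0.04, 0.26 and 0.21, a mean of 0.24 (SE 0.0511, 95% interval 0.13 to 0.35, SD 0.128, n = 5, limma adjusted p = 0.0272). The call was lost without animal 1 (adjusted p = 0.109), animal 2 (0.0930) or animal 4 (0.0928) and under most other ways of processing. Its other partners in sterol sensing were dim: Srebf1 and Srebf2, the transcription factors that Scap escorts, were above background on no array. These dim probes showed the same split by dye. Srebf1 had means of -0.16 with adefovir in Cy3 and 0.42 in Cy5, and Srebf2 had -0.11 and 0.35. Of the 5 probes of this list 1 was called higher, beside 0.833% of all probes, and none lower. The median was 0.12 over the 5 probes but -0.07 over the 2 that were above background.

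The mean ratios of the 2 dye orientations had opposite signs for 68 of all 120 probes and 30 of the 70 above background. Ratios near 0 can differ in sign by noise, and whether these counts exceed that was not tested. Of the 13 probes with a positive ratio and an unadjusted p under 0.05, 9 had opposite signs, but among the 4 of them above background 1 did. Of the 14 negative ones 3 had opposite signs, and among the 11 above background 1 did. In all, 22.5% of probes had an unadjusted p under 0.05.

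Genes of cholesterol synthesis showed no common change over the group but varied widely between animals. Of 15 probes, 13 were above background, none was called in either direction, and the median was -0.06. Of those 13 genes, 11 were above 0 in animal 1, none in animal 2, 12 in animal 3, 1 in animal 4 and 2 in animal 5. The medians of the 13 were 0.16, -0.41, 0.20, -0.18 and -0.21 in animals 1 to 5. The arrays of a pair gave the same sign in each animal, with medians of 0.15, -0.30, 0.14, -0.09 and -0.14 with adefovir in Cy3, and of 0.14, -0.37, 0.27, -0.24 and -0.35 in Cy5. Animals 1 and 3 were thus high and animals 2, 4 and 5 low, on separate hybridisations of the same liver RNA. Each animal had its own slide, so the animal, its slide and its RNA preparation cannot be told apart here. Among all 70 probes above background, 32 to 36 were above 0 in each animal. The normalisation centres each array near 0 over the gene spots, so a near-even split was set in advance. It is no measure of how far the pattern is confined to this list.

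Most single genes of this list had the same animals high and low. Msmo1, which removes methyl groups from the sterol ring, had 0.33, -0.99, 1.02, -0.48 and -0.68 (mean -0.16, SD 0.821, the widest of any probe). Fdps, the farnesyl diphosphate synthase, had 0.36, -0.86, 0.29, -0.54 and -0.76 (mean -0.30, adjusted p = 0.311). Cyp51, the lanosterol demethylase, had 0.40, -0.61, 0.29, -0.37 and -0.43 (mean -0.14). Hmgcs1, which makes the substrate of HMG-CoA reductase, had 0.33, -0.41, 0.51, -0.18 and -0.41, and the squalene synthase Fdft1 had 0.27, -0.41, 0.33, -0.35 and -0.39. Idi1, an isomerase of the same pathway, did not follow them, with -0.15, -0.01, 0.12, 0.06 and 0.30. The SD between animals had a median of 0.275 in this list, against 0.165 over all probes above background, and 10 of the 13 genes were over the latter value. No test was made of this spread, and the genes were singled out after their values were seen where they are not among the named genes of the processing rule.

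**Figure D4:**
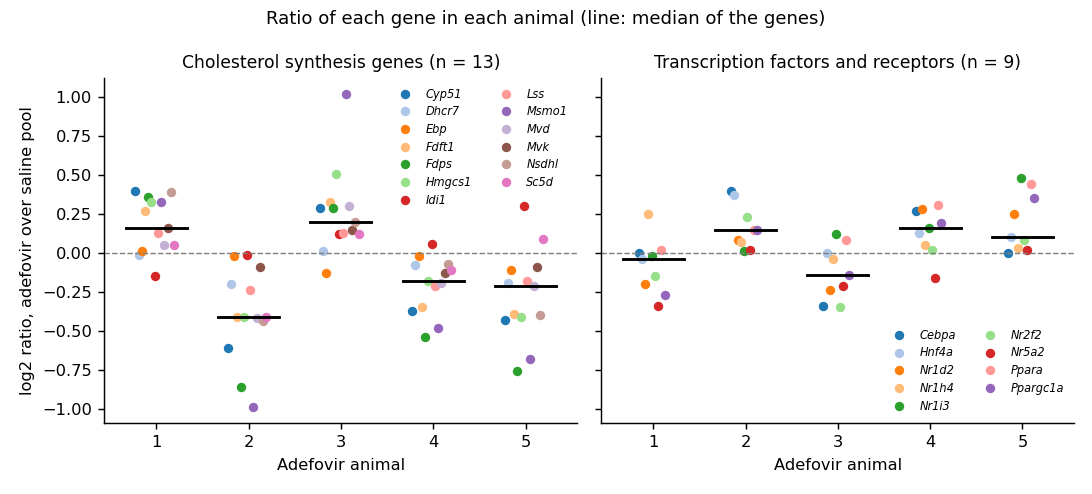
Log2 ratio of adefovir over the saline pool in adefovir animals 1 to 5 for the 13 cholesterol synthesis genes (left panel) and the 9 transcription factor and nuclear receptor genes (right panel) above background; each point is a gene and the black line is their median. Cholesterol synthesis medians are 0.16, -0.41, 0.20, -0.18 and -0.21, and those of the receptors -0.04, 0.15, -0.14, 0.16 and 0.10.

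Acss2, which makes acetyl-CoA from acetate for lipid synthesis, had a similar order of animals, at 0.05, -1.21, 0.12, -0.36 and -0.53 (mean -0.38, SD 0.536, adjusted p = 0.214). Animals 1 and 3 were its highest in both orientations, but their sign depended on the dye. They had -0.12 and -0.17 with adefovir in Cy3 and 0.23 and 0.42 in Cy5. The sterol 12-hydroxylase Cyp8b1 also had a similar order, at 0.39, -0.32, 0.67, -0.16 and -0.48 (mean 0.02). This enzyme sets the share of cholic acid among bile acids. Cyp8b1 was the single array gene from the list of PPAR alpha targets used here. In the tenofovir animals, hybridised against the same pool, 2, 2, 2, 3 and 1 of the 13 synthesis genes were above 0. The spread between saline animals cannot be had from a pool, so how far untreated livers differ in these genes was not measured.

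Transcription factors and nuclear receptors held no call, with a median of 0.06 over 25 probes, of which 9 were above background. Of those 9, the number above 0 was 3, 9, 2, 8 and 8 in animals 1 to 5, with medians of -0.04, 0.15, -0.14, 0.16 and 0.10. Here animals 1 and 3 were the low ones. Ppara, the fatty acid receptor, was positive in 5 of 5 animals at 0.02, 0.15, 0.08, 0.31 and 0.44 (mean 0.20, adjusted p = 0.303). Nr1i3, which is CAR, had 0.15, the bile acid receptor Nr1h4 had 0.07, and Ppargc1a, a coactivator of fasting metabolism, had 0.06. Nr5a2, a receptor that acts on bile acid genes, had -0.34, 0.02, -0.21, -0.16 and 0.02 (mean -0.13, adjusted p = 0.214). The relation of these values to the cholesterol synthesis values of the same animals was not tested.

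Bile acid synthesis and transport genes did not pass either. The 7 synthesis probes, 4 of them above background, had a median of -0.08 and no call. Cyp7a1, the rate-limiting enzyme, had -0.05 (-0.16 to 0.05) and the sterol carrier Scp2 had -0.09 (-0.21 to 0.04). The 11 transporter probes, 8 above background, had a median of 0.08 and no call. Abcb11, the bile salt export pump, was below 0 in 5 of 5 animals at -0.27, -0.05, -0.45, -0.25 and -0.14 (mean -0.23, 95% interval -0.44 to -0.03, adjusted p = 0.194). Slc10a1, which takes up bile acids from blood, had -0.13 (adjusted p = 0.140), being 0.04 in animal 4 and below 0 in the others. The phospholipid exporter Abcb4 had 0.17 and the drug conjugate exporter Abcc3 had 0.08.

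Cholesterol efflux and lipoprotein genes had a median of 0.00 over 10 probes, 7 above background, with no call. Abcg8, part of the sterol exporter, had 0.20, 0.14, -0.01, 0.19 and 0.22 (mean 0.15, adjusted p = 0.140). Apoa1, the main protein of HDL, had 0.62 and 0.64 in animals 1 and 2 but -0.25, 0.08 and -0.14 in animals 3 to 5 (mean 0.19). The 2 heme probes had a median of 0.10 and no call, and the 6 steroidogenesis probes, of which Cyp17a1 alone was above background, a median of -0.02 and no call. The 5 reference gene probes had a median of 0.02, with Actb at -0.02, the brightest of 3 Gapdh probes at -0.05 and Ppia at 0.08.

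The standard errors and intervals used a spread estimated over 10 animals, the 5 of tenofovir included. A gene that varied more in tenofovir livers thus has a wider interval here, and a gene that varied more in adefovir livers a narrower one. Idi1 is an example of the former, with an SD of 0.165 in adefovir animals and 0.513 in tenofovir animals. Fdps is an example of the latter, with 0.586 and 0.0891. The counts of intervals that follow rest on this shared spread. The 95% interval lay within 0.5 of 0 for 114 of 120 probes and for 64 of the 70 above background. A further 36 probes were above background on none of the 10 arrays, and a narrow interval of so dim a probe does not bound its RNA. Per array, 64 to 80 probes were above background in the adefovir channel in Cy3 and 38 to 60 in Cy5, and 38 to 69 or 64 to 78 in the saline channel of the same arrays. The arrays of a pair correlated across probes at r = 0.205 to 0.682, or 0.636 to 0.918 once the mean dye effect of each probe was taken out. Of the 10 hepatocyte markers on the array, 9 were above background in the adefovir channel on at least 6 of the 10 arrays, and the tenth, Cyp7a1, on 3. The array held none of the markers listed for Kupffer cells, leukocytes, stellate, endothelial or bile duct cells. In whole liver, fewer cells of a type and less RNA per cell cannot be told apart.

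Adefovir and tenofovir, given at the same weight of drug per body weight, were compared directly over 5 animals each. No probe differed by limma's test (0 of 120, 0.00%, with 8 at an unadjusted p under 0.05 and a smallest adjusted p of 0.676). Both groups were set against the same saline pool, so a high or low value of the pool would move both ratios together. The difference itself does not hold the pool's level. Its interval lay within 0.5 log2 units of 0 for 105 probes and within 1 for 118.

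Cyp26a1 had -1.32, -1.37, -1.01, -0.66 and -1.00 in adefovir animals and -0.75, -1.17, -1.47, -0.93 and -1.01 in tenofovir animals. The groups overlapped, and the difference was -0.01 (95% interval -0.35 to 0.34). The treated channel was above background on 1 of 10 adefovir arrays and 2 of 10 tenofovir arrays, and the difference ran from -0.68 to 0.67 over 17 alternatives, so its interval sets no limit on how alike the 2 drugs were for this gene. Cyp1a2 had -0.34, -1.09, -0.62, -0.48 and -0.43 after adefovir and 0.17, -0.29, -0.07, -0.53 and -0.37 after tenofovir, a difference of -0.37 (-0.73 to -0.02, adjusted p = 0.676). The groups overlapped here too, so a lower Cyp1a2 particular to adefovir is not shown. Nr5a2 averaged -0.13 after adefovir and 0.11 after tenofovir (difference -0.25, -0.43 to -0.06, adjusted p = 0.676). Abcb11 averaged -0.23 after adefovir and 0.06 after tenofovir (difference -0.30, -0.59 to -0.01). Scap averaged 0.24 after adefovir and 0.10 after tenofovir (difference 0.14, -0.02 to 0.30). The widest intervals were those of Msmo1, at 0.50 (-0.27 to 1.28), and Cyp8b1, at 0.50 (-0.13 to 1.13), which leave room for differences of over 1 log2 unit.

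**Figure D5:**
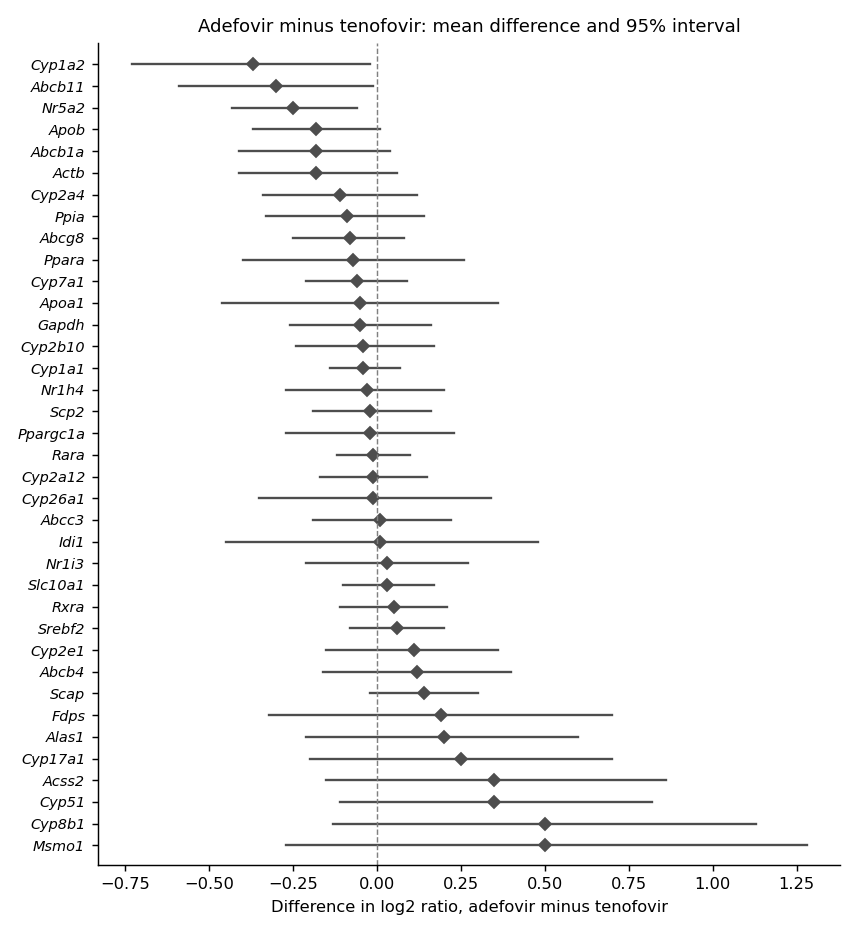
Difference in mean log2 ratio, adefovir minus tenofovir (diamonds), with its 95% interval (lines) for the 37 named genes, 5 animals per group. Cyp1a2 (-0.37), Abcb11 (-0.30) and Nr5a2 (-0.25) have intervals that exclude 0 before adjustment, and no difference passed the adjusted threshold.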

How the data were processed

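Per the labels' protocols, liver RNA was copied into amino-allyl cDNA, dyed with Cy3 or Cy5 and hybridised against the saline pool, after luciferase and calibration RNA had been added. Per the file headers, the deposited scanner files hold the median intensity of each spot in both channels, with its local background median and SD, not normalised. The authors also deposited a table of log2 ratios, with its normalisation not given in the sources used here. It ran as treated over saline (r 0.821 to 0.992 with the scanner values), with column medians of 0.20 to 0.94 for adefovir in Cy3 and -1.04 to -0.04 in Cy5, and its centring is unknown.

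Each array had 578 spots, 360 of them for 120 gene probes with 3 spots each. The platform annotation names 110 probes, and the other 10 were counted but are not named. Background was corrected with normexp (offset 50), ratios were normalised by loess (span 0.3) over gene spots with control spots at weight 0, and averaged over spots and then over the dye pair of an animal. A limma model with 1 mean per antiviral group was fitted over 10 animals (8 residual degrees of freedom, prior 2.86), with Benjamini-Hochberg adjustment at 0.05. The 4 positive-control animals, given phenobarbital and β-naphthoflavone, have 1 array each in 1 orientation and entered only as an alternative. No gene spot was saturated on the antiviral arrays, and no arrays were identical. Dye orientation cannot be told apart from array position, and a slide held 1 animal. Probes of close paralogs may cross-hybridise. Software was R 4.3.3, limma 3.58.1, Python 3.11.15 and matplotlib 3.10.9, and the fit was tested on simulated data. The number of animals and the single saline pool limit the precision.

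The members and lists were chosen with earlier results of these data known. Named genes are calls, the 8 highest and 8 lowest ratios above background, the highest and lowest of each list, and a panel of known genes.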

Additional observations from a re-analysis of the deposited data

Results flagged for a closer look

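Among the 37 named genes, 2 had an animal that stood apart from the other 4, its gap to the nearest of them taking up most of the range. Chance flags about 1 in 20 such groups. Apob, the main protein of LDL, had -0.34 in adefovir animal 3, against -0.10, -0.06, -0.01 and -0.07 in animals 1, 2, 4 and 5. Cyp1a1 had -0.22 in adefovir animal 5, against -0.09, -0.08, -0.11 and -0.12 in animals 1 to 4, and was above background on no array.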

How the results depend on the processing

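The count of probes called lower was 2, and it was 1 with background subtraction, with centring on calibration or luciferase spots and with the adefovir animals fitted alone. It was 10 on arrays with adefovir in Cy5 alone, where 3 of the 10 were above background, and 0 in the deposited series table, which holds 58 usable probes and no Cyp26a1. The count called higher was 1, and it was 0 without background correction, with background subtraction, with centring on the median, on luciferase or calibration spots or on the 3 reference genes Actb, Gapdh and Ppia, with loess over spots above background in both channels, with all 14 animals, in the series table and with the adefovir animals alone. It was 2 with the random block, 4 with array weights and 13 in Cy5 alone, where 2 of the 13 were above background. It stayed at 1 with a normexp offset of 10 and in Cy3 alone, but the gene called was not Scap. It was Soat1, above background on no array, with the offset of 10, and Cyp2a4 in Cy3 alone. Leaving out 1 animal gave 2 to 4 lower and 0 to 2 higher, with 0 higher without adefovir animal 1, 2 or 4, and 4 lower and 2 higher without adefovir animal 5. Scap turned to -0.02 on arrays with adefovir in Cy3 alone (adjusted p = 0.895 by limma). The cause was not tested. No difference from tenofovir was called under any of 18 alternatives or 10 leave-outs, the replicate block among them (0). Equal replicate numbers did not pair the animals (r -0.210 to 0.271 between same-numbered animals, and 2 of 5 closest to their own number).

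The median over all probes was -0.00, and it was 0.15 with calibration-spot centring and 0.13 with luciferase centring or in the series table, so small ratios have no settled direction under those scalings. Of 2050 single-gene values recomputed, 204 that were called in neither setting changed sign, and 37 of 302 list medians did. Cyp26a1 in adefovir livers and the 36 probes never above background are limited by signal.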
